A study of Homo sapiens with 72 samples.

Results

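The mRNAs of 10 Krüppel-like factors (KLF2, KLF4, KLF5, KLF6, KLF7, KLF9, KLF10, KLF11, KLF13 and KLF16) were followed among the 44659 genes of a raw count table. Members were taken by symbol, with earlier results of these data known, and the other 8 KLF symbols of the table served for comparison. A375, an established human melanoma line, was sampled in 72 libraries of cytoplasmic RNA made by QuantSeq, a method that reads only the 3′ end of each polyadenylated mRNA. The 24 groups had 3 replicates each and crossed 4 conditions, 2 drug arms and the times 0 h, 3 h and 5 h.

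The first pair of conditions was siCTU2, a pool of 2 siRNAs against CTU2, and siGL2, the control siRNA, both given 42 h before the drugs. CTU2 is a subunit of the enzyme that adds sulphur to the wobble base of some tRNAs. The second pair was mQ and pQ, 18 h in medium without or with glutamine. Every culture, those of 0 h included, received triptolide (spelled tryptolide in the labels) at 25 µM, which stops transcription. Cells of the T arm received triptolide alone, and those of the TCHX arm also received cycloheximide at 100 µg/ml, which stops ribosomes. A fall with time in the T arm thus follows mRNA loss without new synthesis, and a level that stays higher in the TCHX arm than in the matching T libraries is called retention. Less RNA per cell and fewer cells cannot be told apart in such bulk samples.

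Library totals ran from 5987692 to 15534331 counts (median 10300512). CTU2 read 2.95, 1.01 and 1.32 counts per 1000000 (CPM) in the siCTU2 libraries of the T arm at 0 h and 21.1, 22.0 and 24.2 CPM in those of siGL2. In 3 libraries, all of replicate 3 (mQ T at 5 h, pQ TCHX at 0 h and siCTU2 TCHX at 5 h), 19896 to 20364 genes had counts, against 15507 to 17495 in the other 69, and the leukocyte genes PTPRC and CD3E, at or below 0.759 CPM elsewhere, reached 31.1 to 32.6 CPM. The library labelled siCTU2 TCHX 5 h replicate 3 also held 10.4 CPM of CTU2, against 0.203 and 0.168 CPM in the other two of its group. The main tests therefore used 3 h, and values at 5 h, and those that use pQ TCHX at 0 h, are also given without them where a call, a count or a difference between conditions rests on them. An exception is the pQ TCHX arm, where the log2 changes of single members from 0 h are given with its 0 h replicate 3 library only. Melanoma markers summed to 2584 to 5002 CPM in all libraries, with 6 of 8 at a median of at least 1 CPM, while MLANA (0.20 CPM) and TYR (0.208 CPM) were near 0. Epithelial markers summed to at most 1.42 CPM, endothelial ones to at most 0.971 CPM and fibroblast ones to at most 11.7 CPM. Immune markers (PTPRC, CD3E and CD68) summed to 3.04 to 72.2 CPM, with a median of 9.35 CPM. Unlike PTPRC and CD3E, CD68 had counts in all 72 libraries (median 8.85 CPM), so its detection did not set the 3 libraries apart.

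Krüppel-like factors bind GC-rich and CACCC sequences in promoters through zinc fingers near their C terminus that are alike in all family members. They differ in the N-terminal part of the protein, which recruits coactivators in KLF2, KLF4, KLF5, KLF6 and KLF7 and the SIN3 corepressor in KLF9, KLF10, KLF11, KLF13 and KLF16. Several are immediate-early or stress-induced genes whose mRNAs are short-lived, and KLF4 is known as a regulator of differentiation and pluripotency, KLF6 as a tumour suppressor, KLF9 as a target of glucocorticoid and thyroid hormone receptors, and KLF10 and KLF11 as genes induced by TGF-beta.

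AU-rich elements in 3′ untranslated regions (3′ UTRs) mark many short-lived mRNAs, so the letters TATTTAT, which hold the pentamer ATTTA, were searched on the transcript strand of each member's main transcript (GENCODE 44, GRCh38). KLF2, KLF5, KLF6, KLF7, KLF11 and KLF16 each had 1 match, shown here with 7 bases on either side and the match in capitals, and KLF4, KLF9, KLF10 and KLF13 had 0. Among all 18768 genes, 32.1% held a match, and among genes with a 3′ UTR of similar length to each member's the share ran from 23.7% for KLF4 to 76.9% for KLF7.
KLF6: tttctctTATTTATgccttga
KLF2: tgactggTATTTATtggaccc
KLF11: agaaaaaTATTTATattgttg
KLF7: tctctggTATTTATaatatat
KLF5: ttatcttTATTTATtttgtgg
KLF16: cctggctTATTTATtttcctc
These sites lay in the 3′ UTR exon at chr10:3778345-3778365 (minus strand) for KLF6, chr19:16327105-16327125 (plus) for KLF2, chr2:10052884-10052904 (plus) for KLF11, chr2:207075433-207075453 (minus) for KLF7, chr13:73077181-73077201 (plus) for KLF5 and chr19:1853696-1853716 (minus) for KLF16. By the mean change over the replicate courses given below, the list begins with the member that fell most and ends with those that fell least. The match was thus present at both ends. The place of KLF2, at 0 counts in some groups, is not exact. ATTTA alone occurred 20 times in KLF7, whose 3′ UTR has 7076 bases, 8 times in KLF9 and 6 times in KLF6 and KLF11. It occurred 5 times in KLF5 and KLF13, 4 times in KLF2, 3 times in KLF10 and 2 times in KLF4 and KLF16. The median over all genes was 2, and 12.1% (KLF13) to 66.2% (KLF5) of genes with a 3′ UTR of similar length held fewer. A match is a description of the sequence and not a functional site.

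Of the 10 members, 9 had enough counts to be tested and KLF13 did not, with 4 counts in all 72 libraries and 20 in 2 further rows of the same symbol. KLF2 was the next lowest, with a median of 5 counts per library and counts in 48 of 72. A count of 0 in a library allows up to 3 counts, which is 0.193 to 0.501 CPM at these depths, so KLF2 lay close to what the libraries could show. Since each library reads a single stretch per mRNA, counts were not divided by length, and the levels of different members are not ranked against each other.

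Before decay, cells given CTU2 siRNA held more KLF4, KLF5 and KLF16 mRNA and less KLF6 mRNA than control cells. KLF4 read 7.38, 8.58 and 7.39 CPM in siCTU2 and 1.16, 2.60 and 2.10 CPM in siGL2, so every siCTU2 library lay above every control, and the level was 3.96-fold higher (log2 1.99, SE 0.32, adjusted p = 8.96e-05 by edgeR's quasi-likelihood test with Benjamini-Hochberg adjustment over all genes, as for every adjusted p below unless named otherwise). KLF6 read 58.5, 65.8 and 61.4 CPM in siCTU2 and 105, 94.7 and 92.4 CPM in siGL2, again without overlap, and was 1.57-fold lower (log2 -0.65, SE 0.09, adjusted p = 1.64e-05). Both calls held when any single library was left out. KLF5, an epithelial and stem cell regulator, rose by 0.70 on the log2 scale (SE 0.26, adjusted p = 0.0394), with 8.43, 11.3 and 7.15 CPM against 5.08, 6.78 and 4.57 CPM. KLF16, a repressor of dopamine receptor promoters, rose by 0.42 (SE 0.16, adjusted p = 0.0437), with 42.7, 54.1 and 32.3 CPM against 33.8, 27.7 and 34.3 CPM, groups that overlap. The last 2 calls were the weak ones: leaving out single libraries gave 2 to 5 called members. These 4 of 9 members stand beside 36% of all genes tested, so the share called was near the background.

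The same 0 h contrast can be read in the separate libraries of the TCHX arm. There KLF4 was higher by 1.55 and KLF5 by 0.94, and KLF6 was lower by 0.75 on the log2 scale, all past the threshold, whereas KLF16 had an adjusted p of 0.0922. KLF9 in siCTU2 (39.9, 44.7 and 67.9 CPM) overlapped siGL2 (60.6, 62.6 and 56.1 CPM) through replicate 3, and without that library it was lower by 0.50 (adjusted p = 0.0019). KLF2, KLF7, KLF10 and KLF11 did not pass, with KLF7 at 0.29 (adjusted p = 0.255) and KLF10 at 0.16 (adjusted p = 0.472).

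KLF6 is the member whose level fell with the siRNA pool, so the seeds of the guides were searched in its 3′ UTR, a look added after its values were seen. The guide strands are shown with bases 2 to 8 in capitals, followed by the 3′ UTR sites of KLF6 and KLF7 that pair with these bases.
siCTU2#1 guide: uUGGUCAUgagcuugauag
siCTU2#2 guide: aAGUCCUUcauguucacgc
siGL2 guide: uCGAAGUAuuccgcguacg
KLF6, seed of #1: agatgagATGACCAccaatca
KLF6, seed of #2: cttctccAAGGACTgacaaaa
KLF7, seed of #1: gtgaatgATGACCAgtcctga
KLF7, seed of #2: attttatAAGGACTtttgttt
The sites lie at chr10:3779099-3779119 and chr10:3776316-3776336 in KLF6 and at chr2:207078138-207078158 and chr2:207077329-207077349 in KLF7, all on the minus strand of GRCh38 and in 3′ UTR exons. Of genes with a 3′ UTR of similar length, 4.97% held both seeds in the case of KLF6 and 13.7% in that of KLF7. KLF7 also held a match to the seed of the control guide siGL2, which KLF6 lacked, so the 2 genes differ in that respect, and KLF7 stood at 0.29 at 0 h (adjusted p = 0.255). KLF2 held a match to the seed of #1 alone and KLF5, which was higher at 0 h, to that of #2 alone. KLF6 was also lower in medium without glutamine, where no siRNA was given, and the part of the seed matches in the KLF6 level was not tested. The study looked for off-target effects by RT-qPCR, setting each siRNA beside the pool. KLF6 is not among the mRNAs it shows for CTU2.

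Without glutamine, KLF4 and KLF9 mRNAs were higher and KLF6 mRNA was lower. KLF4 read 10.8, 8.56 and 16.2 CPM in mQ and 3.01, 3.32 and 2.27 CPM in pQ, a 4.29-fold rise (log2 2.10, SE 0.30, adjusted p = 0.000703). KLF9 read 178, 207 and 179 CPM against 98.1, 89.0 and 88.0 CPM, a 2.13-fold rise (log2 1.09, SE 0.11, adjusted p = 8.06e-05). KLF6 read 55.1, 60.8 and 59.6 CPM against 95.2, 84.6 and 84.4 CPM and was 1.45-fold lower (log2 -0.54, SE 0.11, adjusted p = 0.00517). None of the 3 pairs of groups overlapped, and all 3 members were called whichever library was left out. These were 3 of 8 members tested, KLF2 having too few counts, against 24.8% of all genes. In the TCHX arm at 0 h, KLF6 missed the threshold (log2 -0.41, adjusted p = 0.20) with the pQ replicate 3 library that holds extra genes (51.9 CPM, beside 91.2 and 84.2 CPM), and passed without replicate 3 (log2 -0.61, adjusted p = 0.0011). KLF5 was at 0.58 (adjusted p = 0.172), KLF16 at -0.42 (adjusted p = 0.079) and KLF10 at -0.16 (adjusted p = 0.768) in mQ against pQ. KLF4 rose and KLF6 fell in both experiments, which share no library, and KLF9 was called in the medium experiment only. Whether the KLF9 difference itself differed between the experiments was not tested.

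**Figure D1:**
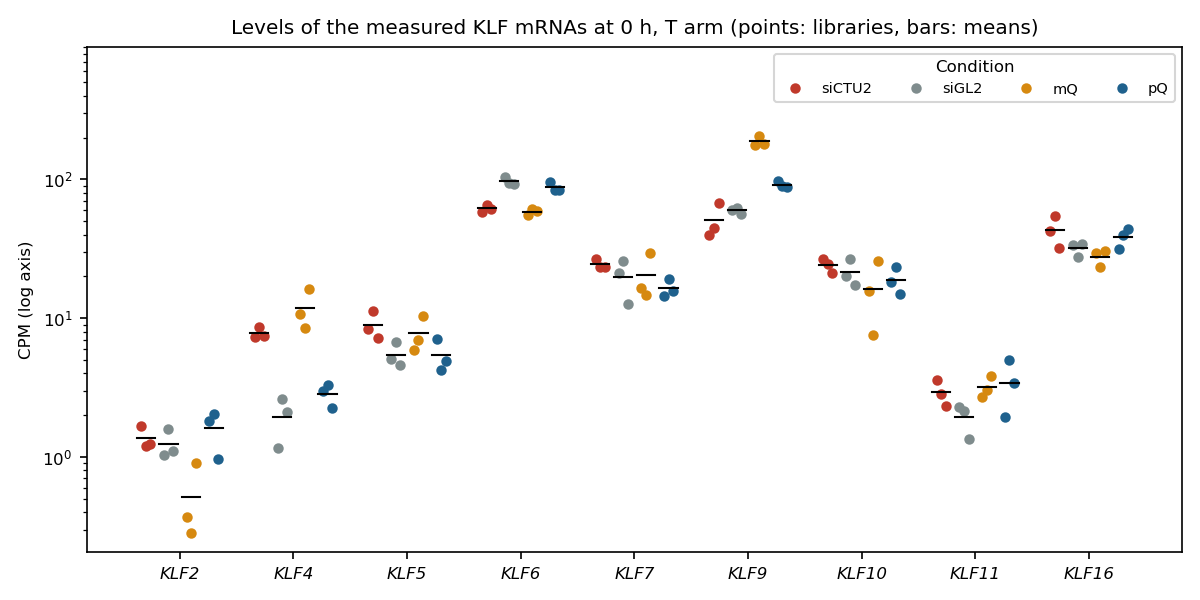
Level of each of the 9 tested members at 0 h in the T arm, in CPM on a log axis, with a point for each of the 3 libraries of each condition and a bar at their mean. KLF4 is higher in siCTU2 than in siGL2 and in mQ than in pQ, KLF6 lies lower in both, and KLF9 reaches 178 to 207 CPM in mQ.

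Over 3 h of transcription block 6 to 9 of the 9 tested KLF mRNAs fell in each condition, KLF6 among the furthest. Time courses were placed on the scale of genes that the study's rule takes as stable, 197 in the siRNA and 81 in the medium experiment. Among other limits, the rule asks for a CPM at 3 h or 5 h of at least 1.1 times that at 0 h. This had to hold in every replicate of both arms, so genes whose share rose set the scale. On that scale the median gene itself fell by 0.474 to 0.717 on the log2 scale, and the members are read against that shift. With TMM scaling the median gene lay at -0.008 to 0.025. The fall of the median gene and the shares of all genes called lower thus depend on the scale. All 9 tested members were lower in siCTU2 and in mQ, 8 in pQ and 6 in siGL2. Of all genes, 67.1% were called lower in siCTU2, 57.2% in siGL2, 69.6% in mQ and 72% in pQ, so the count of members says little by itself and the size of the fall is what sets some of them apart.

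KLF6 dropped in siGL2 from 105, 94.7 and 92.4 CPM at 0 h to 7.06, 8.64 and 6.54 CPM at 3 h, a 17.2-fold fall on the stable-gene scale (log2 -4.10, SE 0.15, adjusted p = 2.33e-14). In siCTU2 it dropped to 3.06, 3.65 and 2.78 CPM (log2 -4.75, SE 0.24, adjusted p = 8.13e-13), in mQ to 5.10, 3.50 and 2.87 CPM (log2 -4.55, SE 0.20, adjusted p = 1.64e-12) and in pQ to 10.3, 10.3 and 6.29 CPM (log2 -3.87, SE 0.28, adjusted p = 4.97e-08). Every 3 h library lay far below every 0 h library in each condition. As a share of the replicate's own 0 h level, 4.04% ± 0.725 of KLF6 was left in siCTU2, 5.78% ± 0.923 in siGL2, 4.39% ± 1.78 in mQ and 7.37% ± 1.24 in pQ (SD, n = 3).

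KLF10, a TGF-beta-induced repressor, and KLF4 came next. KLF10 went from 20.2, 26.7 and 17.4 to 1.97, 3.93 and 1.96 CPM in siGL2 (log2 -3.42, SE 0.29, adjusted p = 5.51e-09), and by -2.74 in siCTU2, -3.67 in mQ and -3.39 in pQ. KLF4 went from 1.16, 2.60 and 2.10 to 0.104, 0.449 and 0.131 CPM in siGL2 (log2 -3.40, SE 0.69, adjusted p = 0.000358), and by -2.45 in siCTU2, -3.50 in mQ and -3.34 in pQ. The KLF4 values at 3 h in siGL2 and pQ rest on a few counts per library, so their folds are imprecise, while those of siCTU2 (1.17, 3.37 and 1.28 CPM) and mQ (1.81, 1.52 and 1.49 CPM) stand above the floor. KLF9 fell less, to between 21.1% (mQ) and 34.2% (siGL2) of its 0 h level, with log2 changes of -1.89 in siCTU2, -1.58 in siGL2, -2.27 in mQ and -1.60 in pQ, all past the threshold.

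The lower members could be followed only roughly. KLF2 had 3, 3 and 8 counts at 0 h in mQ and 17, 21 and 12 in pQ, and 0 in all 6 libraries of these conditions at 3 h. With 3 counts over the group as the floor, the 0 h level of KLF2 was 4.21 times the 3 h floor in mQ and 14.8 times in pQ. These are ratios of CPM, not on the stable-gene scale, and they leave out the counting error at 0 h. In siCTU2 its counts went from 16, 13 and 16 to 5, 8 and 2 (log2 -2.09, SE 0.62, adjusted p = 0.00511), and in siGL2 from 9, 14 and 9 to 0, 9 and 0 (adjusted p = 0.0682). KLF11, a TGF-beta-induced repressor related to KLF10, fell in siCTU2 (log2 -1.98), mQ (-2.48) and pQ (-2.58) but not past the threshold in siGL2 (-1.19, adjusted p = 0.147), where 2.31, 2.15 and 1.36 CPM at 0 h overlapped 1.04, 0.449 and 1.96 CPM at 3 h.

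KLF7, KLF16 and KLF5 lost least. KLF7, which acts in neuronal differentiation, fell by 1.36 in siCTU2, 1.22 in siGL2, 0.87 in mQ and 1.46 in pQ on the log2 scale, and KLF16 by 0.77, 0.74, 0.92 and 0.82, close to the median gene. KLF5 fell by 1.09 in siCTU2 and 1.19 in mQ and was not past the threshold in siGL2 (-0.48, adjusted p = 0.141) or pQ (-0.54, adjusted p = 0.105). When libraries were scaled by TMM, which sets the typical gene to 0 change, 6, 5, 6 and 6 members were called lower in siCTU2, siGL2, mQ and pQ, against 16.2%, 14.5%, 17.6% and 12.1% of all genes. The scale also set the balance of all calls, in siCTU2 for example 180 genes higher and 8879 lower on the stable-gene scale and 1634 higher and 2143 lower with TMM. KLF4, KLF6, KLF9 and KLF10 were lower in all 4 conditions on that scale too, KLF6 by -4.17 to -3.16, whereas KLF5 and KLF16 were called in none and KLF5 stood at 0.02 in siGL2 and 0.18 in pQ.

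**Figure D2:**
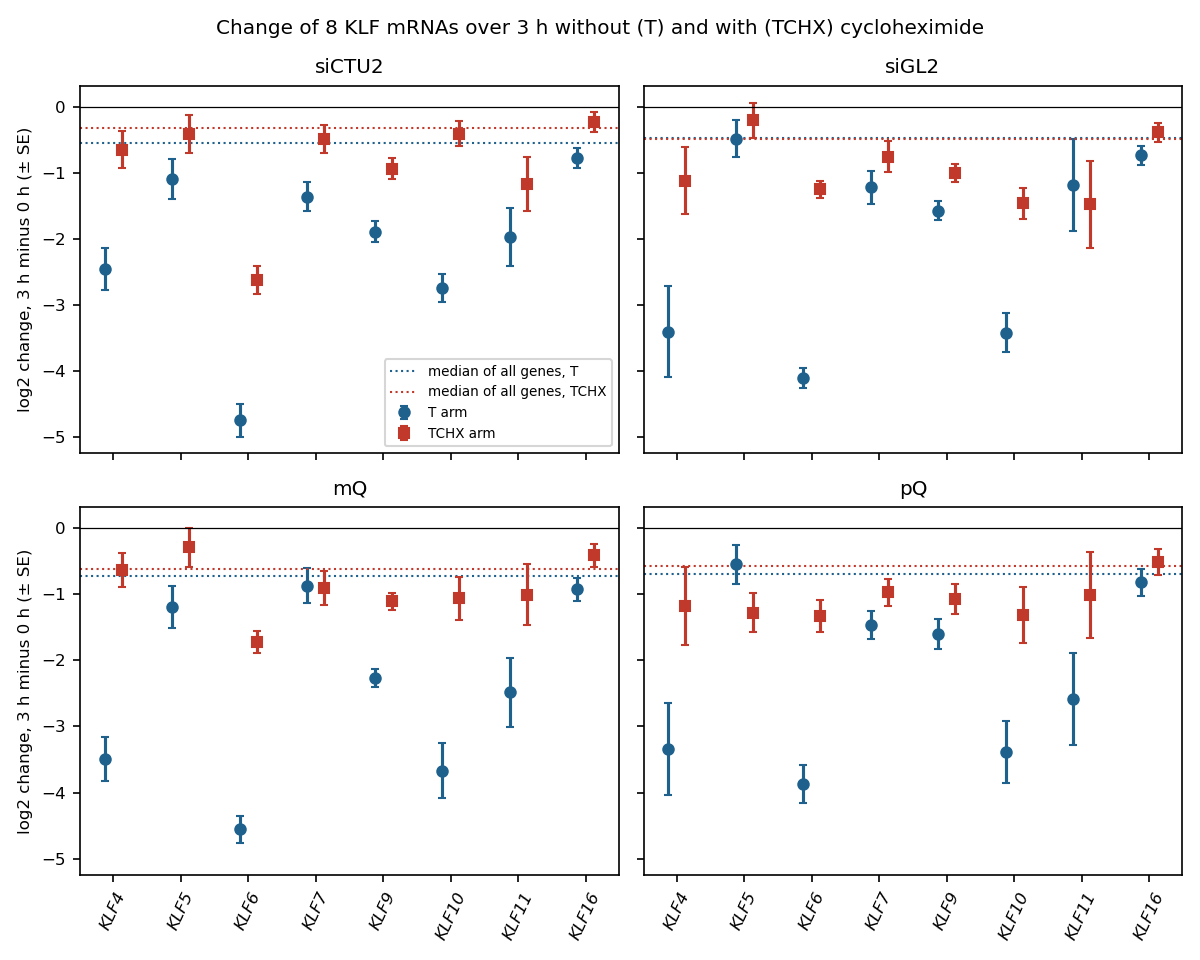
Log2 change from 0 h to 3 h of 8 tested members (KLF2, with groups at 0 counts, is not drawn) in the T arm (circles) and the TCHX arm (squares), by condition, with the SE of the fit and dotted lines at the median of all genes. KLF6 shows the deepest T arm fall of the members drawn, from -4.75 to -3.87, and a smaller one with cycloheximide.

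Differences between members within the same libraries do not depend on any scale between libraries. Over the 12 replicate courses of the T arm (4 conditions with 3 replicates), the mean log2(CPM + 0.5) change was -3.70 ± 0.41 (SD) for KLF6, -2.61 ± 0.41 for KLF10, -2.03 ± 0.60 for KLF4, -1.33 ± 0.63 for KLF2, -1.30 ± 0.28 for KLF9, -1.27 ± 0.78 for KLF11, -0.66 ± 0.45 for KLF7, -0.30 ± 0.28 for KLF16 and -0.30 ± 0.55 for KLF5. The pseudocount of 0.5 limits the change of members near the floor, KLF2 and KLF11 above all and KLF4 at 3 h, so their places are not exact and pairs with KLF2 are not read. KLF6 fell more than KLF10 in 12 of 12 courses, by 1.08 on the log2 scale (exact two-sided sign-flip permutation test, p = 0.000488, the smallest this test can give, adjusted p = 0.00391 over 8 neighbouring pairs). KLF10 and KLF4 did not differ past the threshold (adjusted p = 0.0586), nor did any neighbouring pair from KLF9 downwards. The 3 replicates of a condition are not independent of the condition, and conditions are pooled here because the family is compared with itself.

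With cycloheximide, KLF6 and KLF9 still fell in every condition on the stable-gene scale, and fewer members passed the threshold. In the TCHX arm 3 members were lower at 3 h in siCTU2, 5 in siGL2, 6 in mQ and 6 in pQ, against 37.3%, 60.5%, 69.9% and 59.9% of all genes. In pQ 0 were called without replicate 1 or without replicate 2, and in mQ 2, 2 and 3 without replicates 1, 2 and 3. The pQ changes start in part from the 0 h library with extra genes, in replicate 3. It read 5.83 CPM of KLF10 and 51.9 CPM of KLF6, the lowest of its group, where the highest values were 20.4 and 91.2 CPM. Without replicate 3 more members were called in pQ than with it. KLF6 and KLF9 were called in all 4 conditions, KLF6 at -2.62 in siCTU2, -1.25 in siGL2, -1.73 in mQ and -1.33 in pQ, and KLF9 between -1.11 and -0.94. With TMM scaling each was called in 3 of 4 conditions and not in pQ. KLF6 then lay at -2.30 to -0.71 (adjusted p up to 0.0635) and KLF9 at -0.60 to -0.46 (adjusted p up to 0.194). KLF10 was lower in siGL2 (-1.46), mQ (-1.06) and pQ (-1.32), and in siCTU2 it stood at -0.41 (adjusted p = 0.0945), with 14, 22.6 and 19.0 CPM at 0 h and 18.2, 18.0 and 16.1 CPM at 3 h. Replicate numbers were taken to pair the libraries of this arm in siGL2, mQ and pQ. With the replicate as a block KLF2 (-1.96, adjusted p = 0.0381), KLF4 (-1.20, adjusted p = 0.0402) and KLF11 (-1.61, adjusted p = 0.0207) were also called in siGL2, 8 in all, and KLF11 (-1.10, adjusted p = 0.0424) in mQ. KLF5 was lower in pQ alone (-1.28, adjusted p = 0.00301), and its other changes lay between -0.41 and -0.21. KLF16 lay at -0.51 to -0.24, and on the TMM scale it turned to 0.10 in siCTU2, 0.09 in siGL2, 0.21 in mQ and 0.08 in pQ. KLF5 also turned on that scale, to 0.26 in siGL2 and 0.33 in mQ.

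At 3 h, KLF6 was higher with cycloheximide than without it in every condition. In siGL2 it read 53.0, 60.0 and 50.3 CPM in the TCHX arm and 7.06, 8.64 and 6.54 CPM in the T arm, a 7.26-fold difference (log2 2.86, SE 0.15, adjusted p = 3.95e-11). In mQ the values were 23.6, 27.6 and 26.0 against 5.10, 3.50 and 2.87 CPM (log2 2.81, SE 0.20, adjusted p = 4.61e-09), and in pQ 52.2, 38.1 and 43.1 against 10.3, 10.3 and 6.29 CPM (log2 2.28, SE 0.27, adjusted p = 5.55e-05). In siCTU2 they were 7.25, 17.1 and 8.66 against 3.06, 3.65 and 2.78 CPM, a 3.76-fold difference (log2 1.91, SE 0.26, adjusted p = 1.12e-05). The arms did not overlap in any condition. KLF6 left at 3 h with cycloheximide was 14.6% ± 7.63 in siCTU2, 42.1% ± 5.34 in siGL2, 30.1% ± 1.73 in mQ and 36.7% ± 6.14 in pQ (SD, n = 3). The pQ replicate 3 value (41.4%, beside 38.9% and 29.7%) again uses the 0 h library with extra genes.

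KLF10, KLF4 and KLF9 were retained in siCTU2, siGL2 and mQ. KLF10 was higher by 1.88, 2.11 and 2.95 on the log2 scale, with 18.2, 18.0 and 16.1 CPM against 3.60, 5.65 and 5.42 CPM in siCTU2 and 14.1, 12.7 and 17.5 against 1.59, 1.07 and 3.08 CPM in mQ. KLF4 was higher by 1.74, 2.80 and 3.34, with 13.4, 12.7 and 21.5 CPM against 1.81, 1.52 and 1.49 CPM in mQ, which left it there at 75.2% ± 5.30 of its 0 h level with cycloheximide and 7.82% ± 2.53 without (SD, n = 3). KLF9 was higher by 0.82, 0.54 and 1.13, with 122, 134 and 124 CPM against 59.9, 63.4 and 57.0 CPM in mQ. In pQ the 3 were at 1.59 (KLF10, adjusted p = 0.0631), 1.95 (KLF4, adjusted p = 0.155) and 0.49 (KLF9, adjusted p = 0.337). KLF16 was higher in mQ by 0.54 (adjusted p = 0.0373). KLF2, at 0 counts in the T arm there and 26 in the TCHX arm, was also higher, at 5.93 times the floor of the T arm in CPM. KLF5, KLF7 and KLF11 passed in no condition.

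The calls for retention were thus 4 of 9 members in siCTU2, 4 in siGL2, 6 in mQ and 1 in pQ, against 14.5%, 8.45%, 16% and 5.42% of all genes called higher, whose median difference was 0.036 to 0.159. Without the pQ TCHX 0 h replicate 3 library, the 1 with extra genes in that fit, and with stable genes chosen anew, 5 members were called in pQ (KLF2, KLF6, KLF7, KLF9 and KLF10). Replicate numbers were taken to pair the arms within siCTU2, mQ and pQ. With the replicate as a block 4 members were called in pQ (KLF6, KLF10 at 1.68, KLF7 at 0.70 and KLF9 at 0.50) and 6 in siCTU2, KLF5 (0.75) and KLF7 (0.56) being added. By exact sign-flip permutation tests, no neighbouring pair in the order of retention passed the threshold, and pairs with KLF2 are again not read. That order was KLF6 at 2.32 ± 0.60, KLF10 at 2.00 ± 0.67 and KLF4 at 1.84 ± 0.86, then KLF2 at 0.73, KLF9 at 0.72, KLF11 at 0.58, KLF7 at 0.56, KLF16 at 0.35 and KLF5 at 0.28 (mean log2(CPM + 0.5) difference over the 12 courses, with SD).

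**Figure D3:**
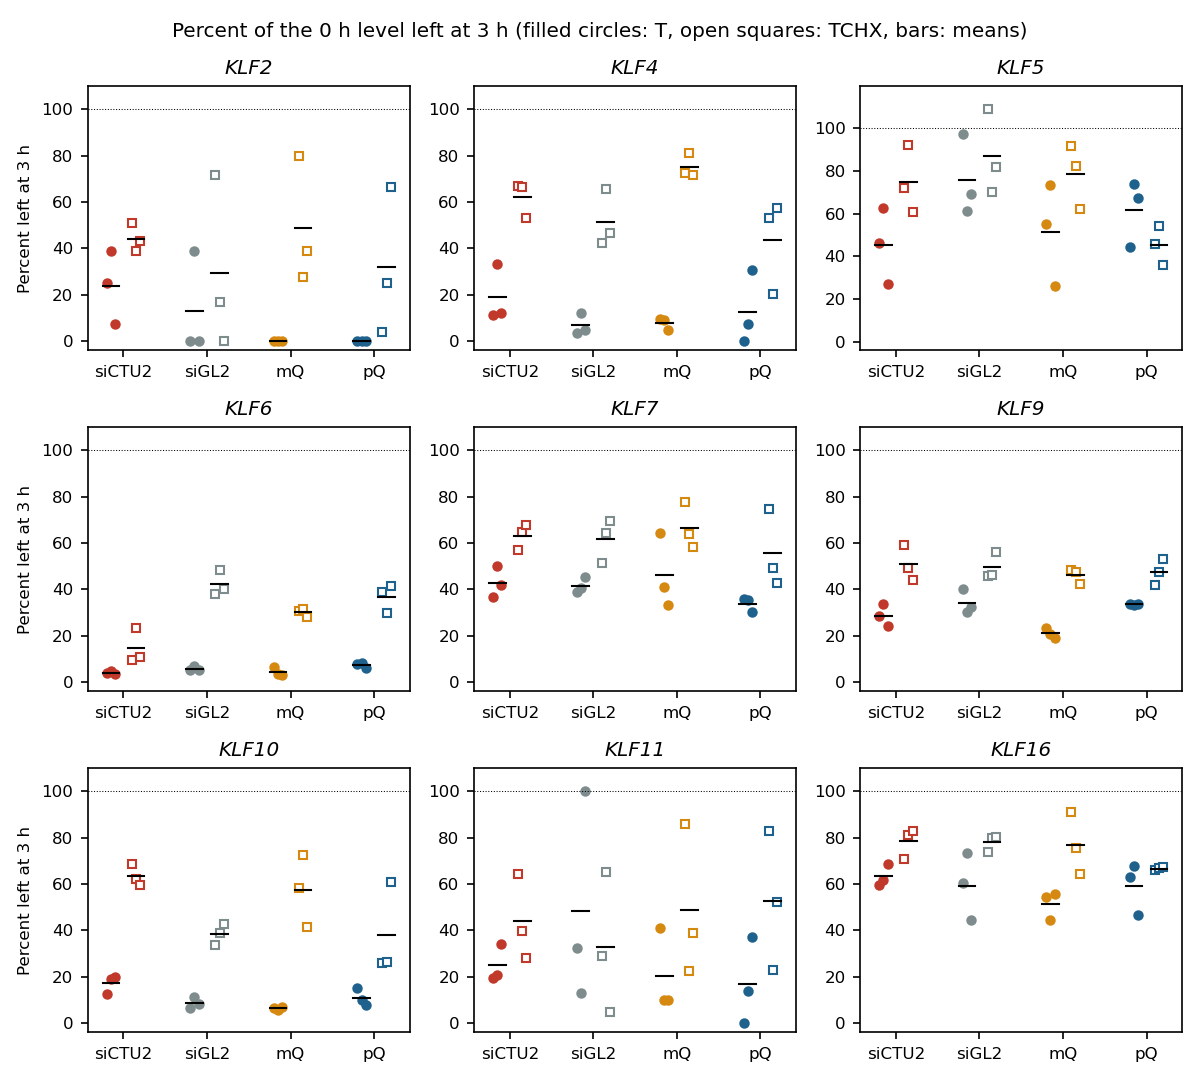
Percent of the 0 h level (mean of both arms of the replicate) left at 3 h for the 9 tested members, by condition. Filled circles show the 3 replicates of the T arm, open squares those of the TCHX arm and bars the means. The pQ values of replicate 3 use the 0 h library with extra genes. The KLF6 mean is 4.04% to 7.37% without cycloheximide, and with it 30.1% to 42.1% in siGL2, mQ and pQ but 14.6% in siCTU2.

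At 5 h, without the libraries with extra genes, KLF6 was higher with cycloheximide by 3.57 in siGL2, 4.61 in mQ and 3.42 in pQ on the log2 scale. In siCTU2 the difference was 0.64 (adjusted p = 0.313), with 4.16 and 3.45 CPM in the TCHX arm and 1.19, 3.01 and 3.34 CPM in the T arm. The excluded library, labelled siCTU2 TCHX 5 h replicate 3, read 30.3 CPM of KLF6, far from the other two of its group, and the excluded mQ T 5 h replicate 3 library read 34.2 CPM, beside 0.786 and 0.676 CPM.

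Whether decay or retention differed between conditions was asked of the difference itself. For decay in the T arm, 0 of 9 members were called between siCTU2 and siGL2 by edgeR (0.919% of all genes were), with 0 at an unadjusted p under 0.05 (7.64% of all genes) and 0 called by DESeq2. KLF6 was the nearest, at -0.64 (95% interval, the estimate ± 1.96 SE, -1.26 to -0.03, unadjusted p = 0.0501 by edgeR's own test, adjusted p = 0.652). Between mQ and pQ 0 of 9 were called for decay (0.11% of all genes), with 1 at an unadjusted p under 0.05 (8.85% of all genes; KLF9, -0.67, adjusted p = 0.459) and 0 called by DESeq2. KLF9 was called when replicate 3 was left out (-0.75, adjusted p = 0.0206). Without the pQ TCHX 0 h replicate 3 library alone it was at -0.64 (adjusted p = 0.184) and KLF6 at -0.65 (unadjusted p = 0.0318, adjusted p = 0.39).

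For retention, 0 of 9 members were called in either experiment (0.188% of all genes between siCTU2 and siGL2, 0.0658% between mQ and pQ), and DESeq2 also called 0 in each. At an unadjusted p under 0.05 there were 1 and 2 members, beside 7.45% and 6.07% of all genes. KLF6 was retained less in siCTU2 than in siGL2 by -0.95 (95% interval -1.60 to -0.30, unadjusted p = 0.00766, adjusted p = 0.407), and this difference was called without replicate 2 (-1.46, adjusted p = 0.0304), the replicate in which siCTU2 read 17.1 CPM. KLF5 (1.08, adjusted p = 0.615) and KLF9 (0.65, adjusted p = 0.634) were retained more in mQ than in pQ at an unadjusted p under 0.05 only. Without the pQ TCHX 0 h replicate 3 library they were at 1.05 (adjusted p = 0.573) and 0.61 (adjusted p = 0.298), KLF10 joined them at 1.30 (unadjusted p = 0.0317, adjusted p = 0.656), and 0 members were called. The interval for KLF10 ran from -0.99 to 0.53 between siCTU2 and siGL2 and from -0.02 to 2.74 between mQ and pQ, so differences of that size cannot be told from 0 at this replication.

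The change within the TCHX arm alone was compared between conditions after the values had been seen. KLF6 fell more with cycloheximide in siCTU2 than in siGL2. In siCTU2 it went from 60.7, 53.1 and 55.4 to 7.25, 17.1 and 8.66 CPM and in siGL2 from 94.9, 99.6 and 92.6 to 53.0, 60.0 and 50.3 CPM, so the share left did not overlap between the conditions. The difference was -1.37 on the log2 scale (SE 0.25, adjusted p = 0.00376), and KLF6 was the 1 member among the 0.593% of genes called. It was -1.92 without replicate 2, -1.25 without replicate 3 (adjusted p = 0.0338) and -1.13 without replicate 1 (adjusted p = 0.577). At 5 h it was -0.76 (adjusted p = 0.994) with all libraries and -2.49 (adjusted p = 0.0811) without those with extra genes. With TMM scaling it was -1.53, and on the scale of genes stable at both times -1.36 (adjusted p = 0.0588). KLF10 stood on the other side of 0, at 1.05 (SE 0.32, unadjusted p = 0.00282, adjusted p = 0.143), so that 2 members had an unadjusted p under 0.05, beside 11.5% of all genes. Replicate numbers were taken to pair the TCHX libraries of the 2 conditions at 0 h and at 3 h. They were not taken to pair those of 0 h with 3 h within siCTU2. With the replicate as a block KLF10 was called too (1.06, SE 0.25, adjusted p = 0.0105), beside KLF6 at -1.38 (adjusted p = 8.17e-06). Between mQ and pQ no member was called in that contrast by edgeR (0.00731% of all genes were), with 1 at an unadjusted p under 0.05 (2.76% of all genes), and KLF6 stood at -0.40 (adjusted p = 1), or at -0.17 (adjusted p = 1) without the pQ library with extra genes.

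**Figure D4:**
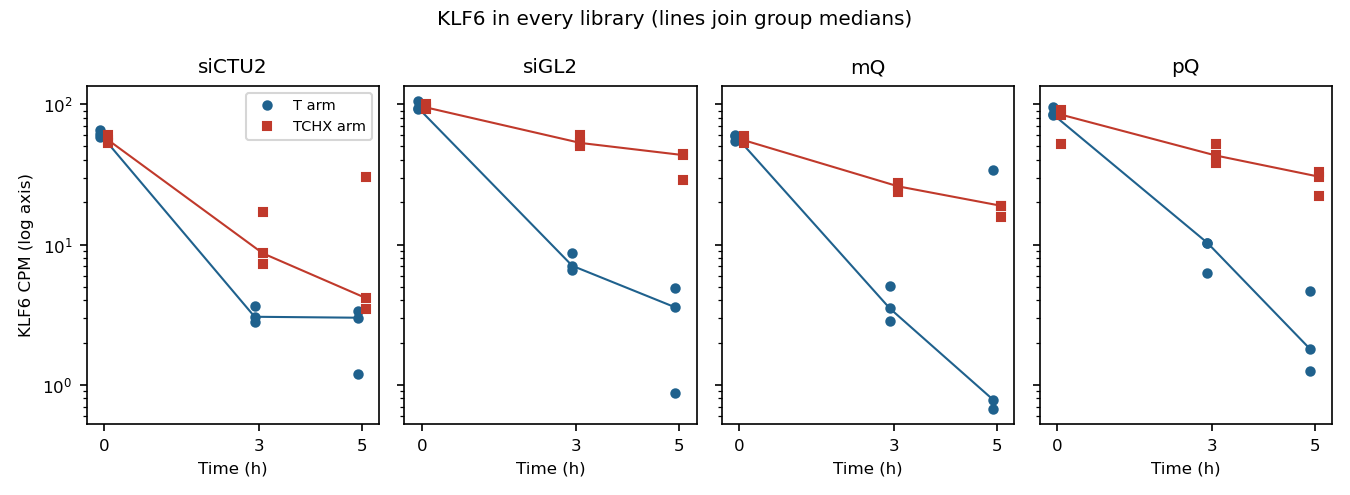
KLF6 level in each library against time in hours, in CPM on a log axis, with circles for the T arm, squares for the TCHX arm and lines joining group medians, in 1 panel per condition. The TCHX libraries lie above the T libraries at 3 h, least so in siCTU2, and the siCTU2 TCHX and mQ T libraries of replicate 3 stand apart at 5 h with 30.3 and 34.2 CPM.

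The study's own measure of translation-dependent decay, the TDD index, is the TCHX minus the T level at a time, divided by the 0 h level, for which the mean of both arms was taken here. Fitted by a linear model on condition, time point and replicate, KLF6 had a mean index of 0.118 in siCTU2 and 0.312 in siGL2 (difference -0.19, unadjusted p = 0.0293, adjusted p = 0.569). It was the 1 member called by the unadjusted rule, beside 8.16% of all genes. The model counts the 3 h and 5 h values of a replicate separately, though both are divided by the same 0 h level. These values are not independent, and with 3 replicates per condition the p-values of this model may be too small. Without the siCTU2 5 h value that uses a library with extra genes, which leaves 5 values against 6, the KLF6 means were 0.0644 and 0.291 (difference -0.24, unadjusted p = 7.28e-05, adjusted p = 0.149), beside 7.04% of all genes. In the medium experiment KLF4 had 0.462 in mQ and 0.243 in pQ (difference 0.22, unadjusted p = 0.0447) and KLF5 had 0.299 and -0.034 (difference 0.33, unadjusted p = 0.0332), 2 members beside 4.79% of all genes. Without the values that use a library with extra genes, 5 against 4 were left, KLF5 differed by 0.40 (unadjusted p = 0.00392) and KLF4 by 0.27 (unadjusted p = 0.058), 1 member beside 10.5% of all genes. With a separate 0 h denominator for each arm the counts were 0 and 1 members. After adjustment 0 genes were called in either experiment by this linear model, with or without these libraries.

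Other family members and partner genes were read from lists. KLF3, a CtBP-binding repressor, fell in the T arm by 0.94 in siCTU2, 0.78 in siGL2, 1.78 in mQ and 1.91 in pQ, and was higher with cycloheximide in siCTU2 (0.46, adjusted p = 0.0255) and mQ (0.77, adjusted p = 0.0201). Of the other KLF genes 3 or 4 of 8 were tested in each condition, and 3, 2, 4 and 3 of them were lower in the T arm in siCTU2, siGL2, mQ and pQ. These counts and those of the next lists stand beside the 67.1%, 57.2%, 69.6% and 72% of all genes called lower there, and the 14.5%, 8.45%, 16% and 5.42% called higher with cycloheximide, and with so few genes per list they are given as a description. SP1, SP2, SP3 and SP4, the related GC-box factors, were lower in the T arm in all 4 conditions (SP1 by -0.87 to -0.71), and none of the SP genes was called for retention by edgeR in any condition, with 2, 0, 3 and 1 at an unadjusted p under 0.05. Among 9 genes of the SIN3 corepressor, through which KLF9, KLF10, KLF11, KLF13 and KLF16 act, 9, 7, 8 and 9 were lower in the T arm, SIN3A the most (-1.43 to -1.02), and 2, 2, 2 and 0 were higher with cycloheximide. Both CtBP genes were lower in 3 conditions and CTBP2 alone in mQ.

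Genes that act on the family moved at 0 h in places. In the ERK5 pathway, which induces KLF2 and KLF4 through MEF2 factors, MAP2K5 (1.13, adjusted p = 0.00044) and MEF2A (0.43, adjusted p = 0.0208) were higher and MAPK7 (-0.84, adjusted p = 0.0257), which encodes ERK5, was lower in mQ than in pQ, and MEF2C was lower in siCTU2 (-0.64, adjusted p = 0.000311). That is 3 of 4 tested between mQ and pQ, where 24.8% of all genes were called, and 1 of 4 between siCTU2 and siGL2, where 36% were. Among 4 ubiquitin ligase genes known to act on KLF proteins, SMURF1 was lower in siCTU2 (-1.5, adjusted p = 2.07e-06) and SKP2 was lower in mQ (-1.15, adjusted p = 0.000516), 1 of 4 in each experiment against those same shares. FBXW7 fell in the T arm by 1.08 to 1.40 and was higher with cycloheximide in siCTU2 (0.72) and siGL2 (0.46).

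Over the 24 group means, the genes whose profile was most like the mean profile of the 9 members were ZNF131 (Pearson's r = 0.985), ZNF140 (0.975), MSC (0.973), KANSL2 (0.971) and IRF2BP2 (0.970), among 9657 genes with a sufficient level. The members themselves ranged from 0.692 (KLF16) to 0.948 (KLF10). These correlations share the time axis and the libraries of all groups and are given as a description.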

How the data were processed

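QuantSeq reads were trimmed with fastp 0.20.1, mapped to GRCh38.p13 with HISAT2 2.2.1 and counted with HTSeq 0.13.5 by the authors, who deposited raw counts per gene for 72 libraries. No removal of PCR duplicates was stated, so counts are not independent molecules and floors cover counting error only. No source says that replicates were separate cultures, so p-values measure the spread between these samples, which may be technical.

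The 10 members were read by symbol, and they, the gene lists and the alternatives were chosen with earlier results of these data known. Here, edgeR 4.0.16 (quasi-likelihood test, filterByExpr, TMM) compared conditions at 0 h on 6 libraries. Time courses at 0 h and 3 h were fitted on 12 libraries per condition, or 24 for a difference between conditions, with median-of-ratios size factors over genes stable in both arms after the study's rule. Adjusted p-values are Benjamini-Hochberg over all genes tested, threshold 0.05. The TDD index model, with an unadjusted p of at most 0.05, covered genes with a mean 0 h count of at least 10. DESeq2 1.42.0 was an alternative. The edgeR, DESeq2 and linear-model steps were tested on simulated data. The column headers of the deposited counts carry the same prefix for all libraries of a replicate number, across conditions, arms and times. What the prefix stands for is not stated. The main edgeR fits used no block. Replicate numbers were taken to pair libraries where the deviations of same-numbered libraries from their group means had r over 0.1 in every pair. Differently numbered libraries were not compared in this way, so a low r shows neither pairing nor its absence. That held between the arms at 3 h in siCTU2 (r = 0.162 to 0.363), mQ (0.210 to 0.452) and pQ (0.117 to 0.376), between 0 h and 3 h of the TCHX arm in siGL2 (0.119 to 0.288), mQ (0.182 to 0.353) and pQ (0.130 to 0.294), and of the T arm in siCTU2 and pQ. It also held between siCTU2 and siGL2 in the TCHX arm at 0 h (0.152 to 0.256) and 3 h (0.108 to 0.368) and in the T arm at 5 h (0.573 to 0.814), and between mQ and pQ in the TCHX arm at 3 h (0.107 to 0.303) and 5 h (0.538 to 0.831). It did not hold between 0 h and 3 h of the TCHX arm in siCTU2 (0.066 to 0.302). CPM are counts per 1000000 counts of a library. 3′ UTRs came from GENCODE 44 (MANE Select transcripts, GRCh38), and siRNA sequences from the study's supplementary table. All 10 members, and from each list at most 4 genes past the threshold in a comparison, could be named.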

Additional observations from a re-analysis of the deposited data

Results flagged for a closer look

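KLF6 met the rule for a tested difference between conditions, as the 1 member to do so without the replicate as a block. With the block KLF10 passed as well, on the other side of 0 (1.06, adjusted p = 0.0105). The fall of KLF6 over 3 h in the TCHX arm was larger in siCTU2 than in siGL2 by -1.37 on the log2 scale (SE 0.25, adjusted p = 0.00376, edgeR's quasi-likelihood test), in a contrast added after the data were seen. All 3 siCTU2 replicates kept less of their 0 h KLF6 (9.50% to 23.4%) than any siGL2 replicate (38.2% to 48.2%). No group had more than 3 libraries, so single libraries were not tested as outliers.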

How the results depend on the processing

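Depth limited KLF2 and KLF11 most, and KLF4 in the T arm of siGL2 and pQ, where counts per library at 3 h were low. The 3 replicates per group limited every difference between conditions. For member values past the threshold, and KLF6 in the differences between siCTU2 and siGL2, 1027 values were recomputed under an alternative. Of these 858 kept direction and side of the threshold, 160 kept direction but missed it, 3 newly passed and 6 changed sign. Values of members that did not pass are outside these counts, and some of them turned too, among them KLF6 between mQ and pQ at 5 h, to 2.85 for decay and -3.01 for retention with the mQ library that holds extra genes, against -1.36 and 1.19 without the libraries with extra genes. The causes of the changes were not tested.

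Counts of called members that moved by over 1.5 times were these. With TMM scaling, the TCHX arm fell from 5 to 3 in siGL2, 6 to 2 in mQ and 6 to 0 in pQ, and retention in pQ went from 1 to 2. With only genes stable at both times, a scale of 8 and 3 genes, the TCHX arm went to 9 in siCTU2 (from 3) and siGL2, retention in pQ to 2, the TCHX arm difference between siCTU2 and siGL2 from 1 to 0 (KLF6 -1.36, adjusted p = 0.0588) and the TDD index of that pair from 1 to 0. With all times in 1 fit, the TCHX arm gave 1 in siCTU2, 3 in siGL2 and 1 in mQ, and retention 1 in siCTU2, 2 in siGL2 and 2 in mQ. With 5 h in place of 3 h, the TCHX arm gave 3 in siGL2, the T arm 5 in mQ (from 9), retention 0 in mQ and 4 in pQ, and the TCHX arm difference between siCTU2 and siGL2 0. Without the libraries with extra genes, 3 h gave 6 for the TCHX arm in siCTU2 and 5 for retention in pQ. No siCTU2 library leaves the 3 h fit, so the count of 6 came with stable genes chosen anew, 147 used in place of 197. Without these libraries, 5 h gave 2 and 4 for retention in siCTU2 and pQ and 0 for the TCHX arm difference between siCTU2 and siGL2. The TDD index of mQ against pQ gave 1 (from 2). Retention in pQ was 5 by DESeq2 and 3 without the filter on low counts, which also gave 1 member for the retention difference (from 0) and 2 for the TCHX arm difference between siCTU2 and siGL2. Subtracting the 0 h difference gave 2 for retention in siGL2. With a separate 0 h denominator for each arm, the TDD index gave a count of 0 for siCTU2 against siGL2 and 1 for mQ against pQ. The order of members had 6 separated neighbours at 5 h (from 2) for the change, and for retention 3 at 5 h and 1 with a pseudocount of 1 (from 0), counts that include the pairs with KLF2, which the pseudocount limits.

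With the replicate block, 6 members were called in the TCHX arm in siCTU2, 8 in siGL2, 4 for retention in pQ and 2 (KLF6 and KLF10) for the TCHX arm difference between siCTU2 and siGL2. Where the numbers did not meet the pairing rule the block also added KLF4, KLF7 and KLF10 in the TCHX arm in siCTU2, KLF2 in the T arm of siGL2, and KLF7 and KLF16 for siGL2 retention. At 0 h the siRNA conditions had r of 0.076 to 0.254 and the medium conditions -0.138 to 0.107 between same numbers, and the block changed no other member's call beside those given with the results.

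KLF16 in the TCHX arm became positive with TMM (0.095 in siGL2, 0.21 in mQ, 0.079 in pQ, and 0.096 in siCTU2, where it had not passed). KLF6 turned in the T arm difference between siCTU2 and siGL2 at 5 h (0.16, and 0.20 without the libraries with extra genes), and KLF2 retention in mQ turned at 5 h (-4.98), where the mQ library with extra genes held its only 5 h counts.

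Over all genes, DESeq2 called 195 and edgeR 127 for the T arm difference between siCTU2 and siGL2, 74 and 26 for the retention difference, and 51 and 15, and 36 and 9, between mQ and pQ. TMM lowered the T arm calls to 3777 from 9059 in siCTU2, 2938 from 7488 in siGL2, 3573 from 9236 in mQ and 2427 from 9473 in pQ.

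Leaving out libraries gave these lowest and highest counts of called members. At 0 h they were 2 (without siCTU2 replicate 1 or 2, or siGL2 replicate 1 or 3) and 5 for siCTU2 against siGL2 and 3 and 5 for mQ against pQ. In the T arm they were 6 and 9 in siCTU2, 6 and 9 in siGL2, 5 and 8 in mQ and 7 and 9 in pQ. The mQ low of 5 came without replicate 1. The TCHX arm gave 2 and 6 in siCTU2, 3 (without replicate 1) and 5 in siGL2, 2 and 5 in mQ and 0 and 7 (without replicate 3) in pQ. Retention gave 3 and 5 in siCTU2, 2 (without replicate 2 or 3) and 4 in siGL2, 4 and 6 in mQ and 1 and 5 (without replicate 3) in pQ. Differences gave 0 and 1 for siCTU2 against siGL2, in retention and in the TCHX arm, and 0 and 1 for mQ against pQ in the T arm. The TDD index gave 1 and 2 for siCTU2 against siGL2 and 0 and 1 for mQ against pQ. The order of the 3 h change had 0 separated neighbours in each case, with 8 courses left. With 8 courses, 1 pair alone cannot pass after adjustment over the neighbouring pairs, even if every course goes the same way. These counts of 0 therefore do not show that the order depends on a replicate.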
